A study of Saccharomyces cerevisiae with 18 samples.

Results

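Yeast cells without the BRE1 gene (bre1Δ) were compared with wild-type (WT) cells on day 4 of chronological aging, in which cells that no longer divide are followed as their culture grows old. Both groups were in the strain BY4742, a haploid laboratory strain of mating type alpha that lacks URA3, LEU2 and LYS2 and carries a partial HIS3. Cells were grown overnight in the rich glucose medium YPD, diluted, and collected on day 4 without further treatment. Messenger RNA was sequenced from 3 libraries of bre1Δ and 3 of WT at day 4, which are 6 of the 18 libraries of the study. The other libraries are WT and bre1Δ cells at day 1, and cells without SET2 (set2Δ) at day 1 and day 4, again 3 in each group. The genes described are all those in the count table, 6837 identifiers, of which 6320 had enough reads to be tested and 517 did not. The labels do not say how the deletion was made, whether the strain is a single clone, or whether the 3 libraries of a group came from separate cultures, so the p values may measure technical spread only.

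Bre1 is the ubiquitin ligase that, with the conjugating enzyme Rad6, attaches a single ubiquitin to histone H2B in transcribed genes. This mark is needed for full methylation of histone H3 by Set1 and Dot1 and helps the histone chaperone FACT restore nucleosomes behind RNA polymerase II. Budding yeast on glucose first ferments, then respires the ethanol it has made, and finally stops dividing with stores of glycogen and trehalose, high stress resistance and little ribosome synthesis. The study, by its title, is about Bre1 and the turnover of Set2 protein in aging, and the comparison asks how the transcriptome of an aged culture differs without Bre1.

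Library totals were 23158487 to 25763314 counts in WT and 12500920 to 29514490 in bre1Δ at day 4. In a principal component analysis of these 6 libraries the first component, which separated the strains, held 95.6% of the variance. Replicates 1 and 3 of bre1Δ lay nearer to counting error (chi-square of 1.52 per gene, where counting error alone gives about 1) than either did to replicate 2 (10.3 and 14.6), and the WT pairs gave 4.27 to 8.93. Per library total, the alpha-specific pheromone gene MF(ALPHA)1 was at 149 to 157 CPM in WT and 36.2 to 42.9 CPM in bre1Δ. The other alpha-specific genes checked differed less. SAG1 was at 154 to 166 and 75.9 to 78.8 CPM, and MF(ALPHA)2 at 27.2 to 30.7 and 22.3 to 24.6 CPM. On this scale STE3 was not lower, at 37.6 to 41 CPM in WT and 40.7 to 46.7 CPM in bre1Δ. Its order depends on scaling. The TMM factors that also divide the levels below were 0.869 to 0.883 in WT and 1.04 to 1.07 in bre1Δ, which lowers bre1Δ relative to WT. Genes specific to mating type a were read too, with MFA1 at 26.6 to 27.1 and 17.6 to 20 CPM and STE2 at 10.1 to 12.7 and 28.4 to 29.6 CPM, and their part in the results was not tested. URA3, LEU2 and LYS2 had 0 to 8 counts in each. Levels are normalised read counts (CPM, a gene's share of its library's reads after TMM scaling), listed for replicates 1, 2 and 3 in turn. Differences are log2 fold changes of bre1Δ against WT with their standard error, and a gene is called higher or lower where its adjusted p in edgeR's quasi-likelihood test (Benjamini-Hochberg over 6320 genes) was at most 0.05.

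The deletion was visible in the counts. BRE1 (YDL074C, chromosome IV, 324047 to 326149 in R64, the assembly behind sacCer3, which the submitters' processing notes name) had 7885 reads over the 3 WT libraries and 2 over the 3 bre1Δ libraries, a level relative to library totals that was 2980-fold lower (95% counting interval 825 to 24600). Of its neighbours, the ribosomal protein gene RPL31A on one side was higher in bre1Δ (1.79 ± 0.07), and so was AHK1, of the osmosensing pathway, on the other (0.86 ± 0.07). The small nucleolar RNA gene SNR63 between RPL31A and BRE1 was not called (-0.13, adjusted p = 0.58 in edgeR).

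Most of the transcriptome differed. Of the 6320 genes tested, 5461 (86.4%) were called, 2832 higher (44.8%) and 2629 lower (41.6%) in bre1Δ. A difference of at least 2-fold was found for 1195 higher genes (18.9%) and 1206 lower genes (19.1%), and for 5589 genes (88.4%) the 3 libraries of one strain lay entirely above the 3 of the other. Any group of genes is therefore read against this background, with a median log2 fold change of 0.04 over all genes tested. The balance depends on scaling: with library size alone 62.2% of the called genes were higher, against 51.9% with TMM, and the median of all genes was 0.31. A CPM value is a share of the RNA of a whole culture, so a change in the share of cells in some state, such as dividing or newly separated cells, and a change in the RNA of each cell cannot be told apart.

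**Figure D1:**
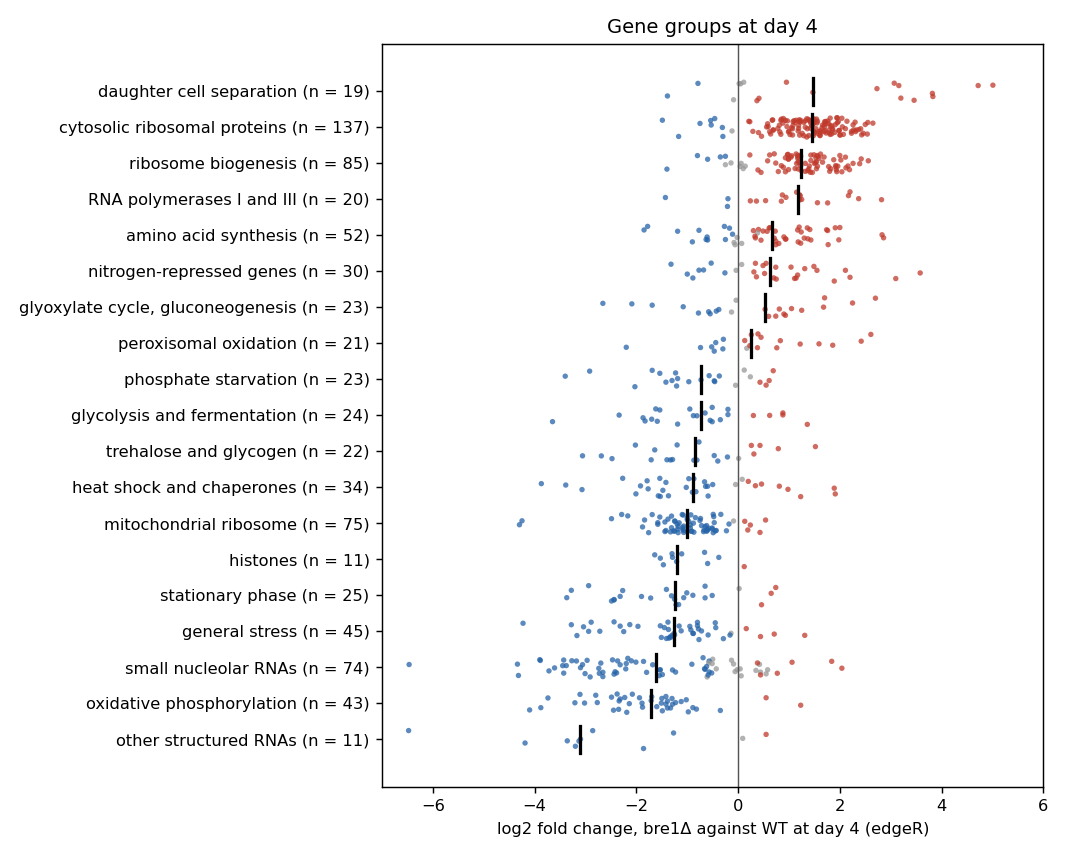
Log2 fold change of bre1Δ against WT at day 4 (x axis) for the tested members of 19 gene groups (y axis, number of members in parentheses). Each point is a gene, red if called higher, blue if called lower and grey if not called, and the black bar is the median, which runs from 1.47 for daughter cell separation to -3.10 for structured RNAs other than small nucleolar RNAs. The last of these groups also holds the long noncoding transcripts SRG1 and ICR1.

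Genes that part a daughter cell from its mother showed some of the largest differences. When a bud is complete, daughter nuclei switch on genes for glucanases and a chitinase that digest the septum with the help of the RAM kinase pathway. SCW11 (YGL028C, chromosome VII, 441281 to 442909), for a glucanase-like wall protein, was at 119, 105 and 118 CPM in WT and 3761, 3428 and 3802 CPM in bre1Δ. The libraries of the strains did not overlap, and the log2 fold change was 5.01 ± 0.28 (adjusted p = 4.41e-13 in edgeR). The daughter-specific genes DSE2, at 220.3, 168 and 199 CPM in WT and 5199, 5009 and 5255 CPM in bre1Δ (4.72 ± 0.26), and DSE1, at 414, 369 and 406 CPM in WT and 5735, 5311 and 5819 CPM in bre1Δ (3.83 ± 0.22), followed the same order. EGT2, of cell separation, was at 253, 225 and 228 CPM in WT and 3481, 3019 and 3449 CPM in bre1Δ (3.82 ± 0.24). CTS1, the endochitinase that digests the septum, was at 1422, 1287 and 1278 CPM in WT and 14777, 14217 and 14861 CPM in bre1Δ (3.46 ± 0.22). Together the 19 genes of this group took 0.492% to 0.53% of all counts in WT and 4.54% to 4.77% in bre1Δ.

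Of the 19 genes, 13 were higher and 2 lower, and the median was 1.47. DSE4, an endoglucanase (3.16 ± 0.19), PRY3 (3.07 ± 0.17), AMN1, which restrains mitotic exit in daughters (3.20 ± 0.18), DSE3 (2.73 ± 0.15) and ASH1, the daughter-specific repressor of mating type switching (1.47 ± 0.10), were among those higher. SUN4, a septation gene outside the group, was at 132, 113 and 115 CPM in WT and 2170, 1855 and 2234 CPM in bre1Δ (4.12 ± 0.25). Genes of the RAM pathway were divided: the kinase gene KIC1 was lower (-1.39 ± 0.06), while the kinase gene CBK1 (0.41 ± 0.05) and its partner MOB2 (0.95 ± 0.10) were higher. SWI5, for a transcription factor active at the end of mitosis, was lower, at 78.5, 91.1 and 88.1 CPM in WT and 9.74, 13.0 and 13.3 CPM in bre1Δ (-2.81 ± 0.10). The mitotic cyclin gene CLB1 (-1.96 ± 0.07), the anaphase activator gene CDC20 (-1.40 ± 0.07) and CHS2, the chitin synthase of the primary septum (-2.76 ± 0.07), were lower too. PCL9, a cyclin gene of late mitosis and early G1, was higher (2.25 ± 0.11), and of 38 cell cycle and quiescence regulators 25 were higher and 10 lower (median 0.69, and 0.36 with the trend of gene length removed).

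Genes of the ribosome were mostly higher. The 137 cytosolic ribosomal protein genes summed to 32614 to 32963 CPM in the WT libraries and 76997 to 77672 CPM in the bre1Δ libraries, and 128 of them were called higher and 8 lower, with a median of 1.46. RPS28B, of the small subunit, was at 51.8, 52.5 and 49.4 CPM in WT and 324, 325 and 317 CPM in bre1Δ (2.65 ± 0.08), and RPS9B at 140.0, 139.7 and 141 CPM in WT and 773, 783 and 767 CPM in bre1Δ (2.46 ± 0.05). Among the 8 lower genes, picked after their values were seen, were RPS30A (-1.17 ± 0.05), RPL10 (-0.46 ± 0.09) and RPL36B (-1.49 ± 0.14). With the trend of gene length removed the median of the group was 1.55. RPS6A is named only with the reserve that 45.2% of its 50-base windows also occur at another locus (2.14 ± 0.06).

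The factors that assemble ribosomes, and the polymerases that transcribe ribosomal RNA and transfer RNA, were higher as well. Of 85 ribosome biogenesis genes 74 were higher and 5 lower (median 1.24). NOP56, of the box C/D snoRNP that methylates ribosomal RNA, was at 63.0, 66.7 and 65.2 CPM in WT and 242, 253 and 241 CPM in bre1Δ (1.92 ± 0.04), and UTP21, of the small subunit processome, at 19.7, 22.5 and 20.5 CPM in WT and 127, 123 and 120.0 CPM in bre1Δ (2.56 ± 0.08). MAK21, of large subunit assembly, was also higher (2.12 ± 0.06). Of the 20 polymerase I and III subunits 17 were higher and 3 lower (median 1.18). The largest subunits of polymerase I, RPA190 (1.76 ± 0.07) and RPA135 (2.17 ± 0.08), and the smaller RPA12 (2.82 ± 0.13) and RPA49 (2.37 ± 0.08) were higher, whereas the 3 lower genes, RPC37 (-1.43 ± 0.06), RPO31 (-0.21 ± 0.06) and RPC82 (-0.20 ± 0.09), all belong to polymerase III. RPO31 and RPC82 changed sign under scaling by library size, to 0.06 and 0.07, and the call of RPC82 was lost without WT replicate 2 or 3 or bre1Δ replicate 1 or 3. Among 39 translation factors 28 were higher and 6 lower (median 0.42). RLI1, which recycles ribosomes, was at 23.0, 21.7 and 24.3 CPM in WT and 154, 149.5 and 152 CPM in bre1Δ (2.72 ± 0.06), while SUI1, for initiation factor eIF1, was lower (-1.85 ± 0.05).

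Many genes of amino acid synthesis were higher too. Amino acid biosynthesis had 35 of 52 genes higher and 12 lower (median 0.67). ILV5, of branched-chain synthesis, was at 212, 216 and 199 CPM in WT and 1564, 1383 and 1604 CPM in bre1Δ (2.86 ± 0.10), and TRP4, of tryptophan synthesis, at 14.7, 11.8 and 12.2 CPM in WT and 96.0, 86.3 and 91.4 CPM in bre1Δ (2.83 ± 0.10). Genes repressed by good nitrogen sources had 21 of 30 higher and 7 lower (median 0.62, and 0.32 with the trend of gene length removed). GAP1 (YKR039W, chromosome XI, 515063 to 516871), the general amino acid permease, was at 80.9, 80.3 and 83.0 CPM in WT and 967, 953 and 994 CPM in bre1Δ (3.58 ± 0.08), and GAT1, for a GATA activator of such genes, at 82.7, 70.3 and 72.9 CPM in WT and 686, 553 and 693 CPM in bre1Δ (3.10 ± 0.17). The transporters of arginine, CAN1 (1.49 ± 0.05), urea, DUR3 (1.89 ± 0.06), and ammonium, MEP3 (1.31 ± 0.07), were also higher. The amino acid permease genes BAP3 (-1.80 ± 0.08) and BAP2 (-0.27 ± 0.11), named after their values were seen, were lower, though the call of BAP2 was lost without WT replicate 2 or bre1Δ replicate 2 and under scaling by library size. In sulfate assimilation and methionine synthesis 17 of 28 genes were higher and 8 lower, with MET6, the methionine synthase, at 2.17 ± 0.11 and the methionine permease gene MUP3 at -2.65 ± 0.07.

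URA1 (YKL216W, chromosome XI, 25215 to 26159), the dihydroorotate dehydrogenase of pyrimidine synthesis, had the largest rise of all named genes with a mean of at least 20 CPM in either strain. It was at 29.9, 31.0 and 29.5 CPM in WT and 1047, 936 and 1041 CPM in bre1Δ (5.06 ± 0.07, adjusted p = 2.31e-22 in edgeR). The rest of the pathway was mixed, with 9 of 15 genes higher and 5 lower and a median of 0.31. Higher were URA7, a CTP synthase (2.43 ± 0.13), the uridine permease gene FUI1 (2.07 ± 0.07), the pathway's activator PPR1 (1.79 ± 0.10) and URA2, of the first steps (1.51 ± 0.08), and lower were the other CTP synthase gene URA8 (-1.58 ± 0.06) and the cytosine deaminase gene FCY1 (-2.63 ± 0.06). URA3, of the last step to UMP, is deleted in both strains.

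**Figure D2:**
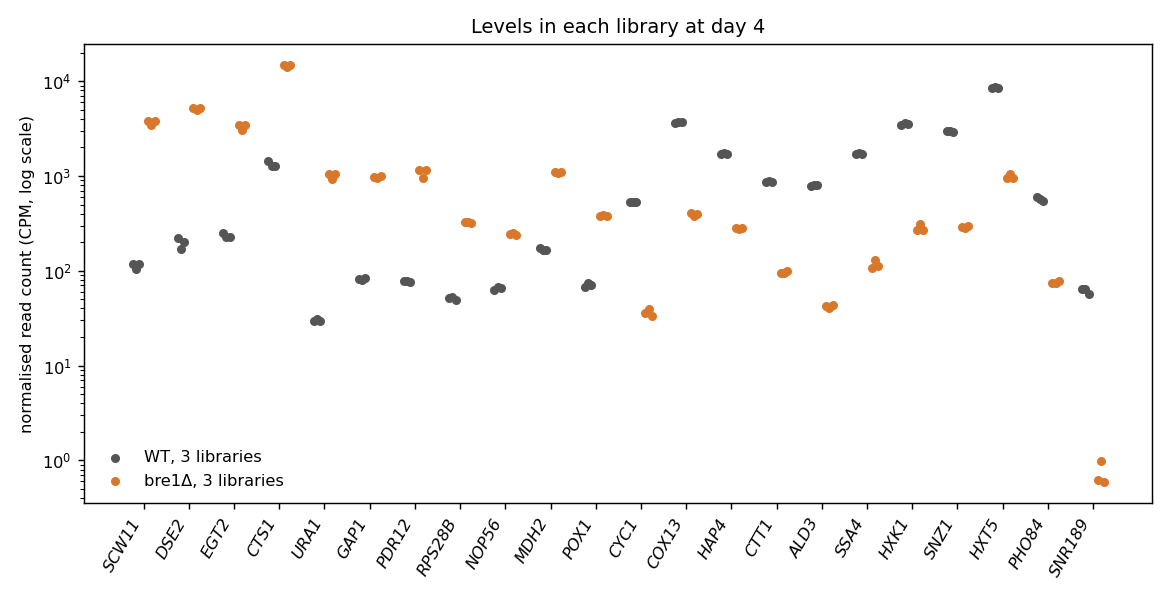
Normalised read counts (y axis, CPM on a log scale) of 22 named genes (x axis) in each of the 3 WT (grey) and 3 bre1Δ (orange) libraries at day 4. For every gene shown the 3 libraries of one strain lay above the 3 of the other, as for SCW11, at 105 to 119 CPM in WT and 3428 to 3802 CPM in bre1Δ.

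Respiratory genes went the other way. Of 43 nuclear genes of oxidative phosphorylation 41 were lower in bre1Δ and 2 higher, with a median of -1.71, and 37 of them were at least 2-fold lower. Their sum was 68065 to 68811 CPM in the WT libraries and 20235 to 20363 CPM in bre1Δ. CYC1, for cytochrome c, was at 529, 537 and 527 CPM in WT and 36.2, 39.4 and 33.6 CPM in bre1Δ (-3.88 ± 0.10), and its isoform CYC7 at 484, 499.6 and 509 CPM in WT and 29.2, 29.7 and 28.4 CPM in bre1Δ (-4.10 ± 0.08). COX13 and COX5A, of cytochrome oxidase (-3.21 ± 0.07 and -3.02 ± 0.08), QCR10, of the bc1 complex (-2.77 ± 0.07), and ATP18, of ATP synthase (-2.45 ± 0.06), did the same. The exceptions were NDE2, an external NADH dehydrogenase (1.23), and SDH3, of succinate dehydrogenase (0.55), which were named after their values were seen. HAP4, the regulated subunit of the Hap activator of respiratory genes, was at 1697, 1762 and 1723 CPM in WT and 283, 273 and 284 CPM in bre1Δ (-2.62 ± 0.05).

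The mitochondrial ribosome was lower too, with 69 of 75 genes lower and 5 higher (median -1.0). MRPL31 was at 176, 189 and 178 CPM in WT and 30.6, 31.3 and 34.2 CPM in bre1Δ (-2.49 ± 0.08) and MRPS17 at 295, 326 and 337 CPM in WT and 66.3, 82.2 and 65.2 CPM in bre1Δ (-2.17 ± 0.08). MRPL51 was lower by more (-4.25 ± 0.14), but it overlaps YPR099C on the opposite strand and whether the counting used strand is not given in the sources used here. The tricarboxylic acid cycle was divided: of 15 genes 8 were lower, among them PYC1, a pyruvate carboxylase (-2.42 ± 0.10), and KGD1 (-1.60 ± 0.07), and 5 higher, among them ACO1, the aconitase (0.53 ± 0.07), and LSC1 (1.08 ± 0.05). Many genes of respiration and of the mitochondrial ribosome are short, and short genes were lower in general. Gene length and log2 fold change had a Spearman's rho of 0.182 across 5824 protein-coding genes, which are not independent replicates, against 0.046 at day 1. Medians ran from -0.42 in the shortest of 10 length groups (51 to 417 bp) to 0.42 in the ninth (2119 to 2852 bp). With this trend removed the medians were -1.53 for oxidative phosphorylation and -0.83 for the mitochondrial ribosome.

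**Figure D3:**
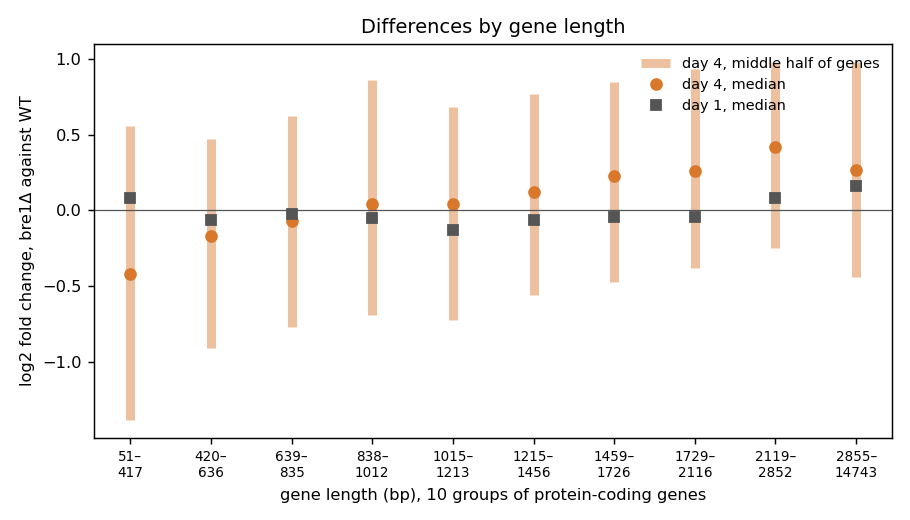
Log2 fold change of bre1Δ against WT (y axis) in 10 groups of protein-coding genes by length in bp (x axis). Orange points are medians at day 4 and orange bars the range between the lower and upper quartiles, and grey squares are medians at day 1. At day 4 the medians rose from -0.42 to 0.42 before 0.27 in the longest group, while at day 1 they lay between -0.13 and 0.16.

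Genes that let cells live on ethanol, acetate or fatty acids went both ways. Of 23 genes of the glyoxylate cycle, gluconeogenesis and acetate use 12 were higher and 9 lower (median 0.53, and 0.30 with the trend of gene length removed). These shares lie near those of all genes tested, 44.8% higher and 41.6% lower. MDH2, the cytosolic malate dehydrogenase, was at 174, 166 and 164 CPM in WT and 1104, 1081 and 1099 CPM in bre1Δ (2.7 ± 0.08), and ALD4, the mitochondrial acetaldehyde dehydrogenase, at 1945, 1919 and 1846 CPM in WT and 9154, 8724 and 9347 CPM in bre1Δ (2.25 ± 0.08). ADH2, the alcohol dehydrogenase that oxidises ethanol (1.70 ± 0.12), MLS1, malate synthase (1.25 ± 0.12), and ICL1, isocitrate lyase (0.53 ± 0.12), were higher as well. Others of the group were lower: ACH1, which handles acetyl-CoA in mitochondria (-2.66 ± 0.12), PCK1, of gluconeogenesis (-1.69 ± 0.10), and CAT8, the activator of the group (-2.09 ± 0.07). In peroxisomal fatty acid oxidation 13 of 21 genes were higher and 7 lower (median 0.26, and 0.11 with the trend of gene length removed). POX1, the acyl-CoA oxidase, was at 67.9, 74.7 and 70.9 CPM in WT and 374, 391 and 375 CPM in bre1Δ (2.42 ± 0.11), ANT1, the peroxisomal ATP carrier, was higher (2.61 ± 0.06), and SPS19 was lower (-2.20 ± 0.12). FAA4, an acyl-CoA synthetase gene, was at 73.2, 75.4 and 71.0 CPM in WT and 588, 547 and 591 CPM in bre1Δ (2.97 ± 0.06), while its paralog FAA1 was lower (-1.84 ± 0.06).

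Glycolysis and fermentation had 19 of 24 genes lower and 5 higher (median -0.73). HXK1, a hexokinase used when glucose is scarce, was at 3472, 3652 and 3522 CPM in WT and 272, 312 and 267 CPM in bre1Δ (-3.65 ± 0.09). GPM1, phosphoglycerate mutase (-2.34 ± 0.07), and CDC19, pyruvate kinase (-1.87 ± 0.15), were lower, while HXK2, the hexokinase of growth on glucose (0.88 ± 0.10), and PFK2 (0.88 ± 0.08) were higher. HXT5, a hexose transporter of slow-growing cells, was at 8522, 8604 and 8548 CPM in WT and 956, 1041 and 960.0 CPM in bre1Δ (-3.12 ± 0.09). HXT6 and HXT7 were lower (-2.34 ± 0.13 and -3.0 ± 0.11) but share 95.1% of their windows with other loci. Reserve carbohydrate genes had 16 of 22 lower and 5 higher (median -0.84). Glycogen phosphorylase, GPH1, was at 2133, 2170 and 2201 CPM in WT and 268, 252 and 260.2 CPM in bre1Δ (-3.06 ± 0.07), and PGM2 (-2.69 ± 0.07), UGP1 (-2.02 ± 0.06) and the trehalose synthase gene TPS1 (-1.71 ± 0.06) were lower. The glycogen synthase genes parted, with GSY1 lower (-1.33 ± 0.08) and GSY2 higher (0.79 ± 0.08).

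Stress genes were lower as a group. General stress genes, which are targets of Msn2 and Msn4 together with the genes of these factors themselves, had 40 of 45 lower and 4 higher. Their median was -1.26, and they summed to 72065 to 72917 CPM in WT and 26351 to 27626 CPM in bre1Δ. ALD3, an aldehyde dehydrogenase gene, was at 792, 796 and 802 CPM in WT and 42.6, 40.7 and 43.5 CPM in bre1Δ (-4.23 ± 0.09), and CTT1 (YGR088W, chromosome VII, 654634 to 656322), the cytosolic catalase, at 866, 876 and 868 CPM in WT and 94.6, 94.1 and 100.5 CPM in bre1Δ (-3.17 ± 0.08). The peroxidase gene GPX1 (-3.04 ± 0.07), the small heat shock gene HSP42 (-2.89 ± 0.07) and the glutamate decarboxylase gene GAD1 (-2.25 ± 0.06) were lower. The 4 higher genes, named after their values were seen, were RTS3 (1.31), MSN4 (0.71), RCK1 (0.44) and MSN2 (0.16), whose call was lost without WT replicate 2 or bre1Δ replicate 2. ALD3 shares 40.4% of its windows with another locus. Heat shock proteins and chaperones had 24 of 34 lower and 8 higher (median -0.89), with the Hsp70 gene SSA4 at 1700, 1750 and 1695 CPM in WT and 108, 131 and 113 CPM in bre1Δ (-3.87 ± 0.09).

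Promoter windows of ALD3 and CTT1 are shown because these stress genes were among the lowest. The window taken was the 300 bases that end 100 bases before the start codon, read from the R64 reference, and the sequences run 5′ to 3′ on the coding strand. Capitals mark AGGGG or its reverse complement, the stress response element read by Msn2 and Msn4.
ALD3 (chrXIII:600973-601272, minus strand): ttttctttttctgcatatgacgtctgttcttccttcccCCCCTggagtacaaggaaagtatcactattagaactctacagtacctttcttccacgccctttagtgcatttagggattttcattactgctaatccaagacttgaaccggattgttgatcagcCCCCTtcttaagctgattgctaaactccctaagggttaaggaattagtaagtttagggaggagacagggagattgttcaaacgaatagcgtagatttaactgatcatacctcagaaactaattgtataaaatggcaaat
CTT1 (chrVII:654234-654533, plus strand): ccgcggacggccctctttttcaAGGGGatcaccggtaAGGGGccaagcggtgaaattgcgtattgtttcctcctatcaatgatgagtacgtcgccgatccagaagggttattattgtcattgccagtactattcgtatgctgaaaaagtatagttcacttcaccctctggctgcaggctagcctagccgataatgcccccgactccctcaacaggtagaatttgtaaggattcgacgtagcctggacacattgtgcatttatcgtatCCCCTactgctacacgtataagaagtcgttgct
The windows held 2 matches in ALD3 and 3 in CTT1. AGGGG, on either strand, was found in 82.2% of the 45 windows of general stress genes, against 23.9% of the 5822 windows of all protein-coding genes tested. The general stress genes, apart from MSN2 and MSN4, were chosen as targets of these factors. It was found in 32.2% of the windows of genes at least 2-fold lower and in 18% of those at least 2-fold higher. CCAAT, the core read by the Hap complex, stood in 86.0% of the windows of oxidative phosphorylation genes against 44.3% of all, but in 43.4% of genes at least 2-fold lower and 43.6% of those at least 2-fold higher. GATGAG, the core of the PAC element of ribosome biogenesis genes, was in 68.2% of that group's windows and 18.1% of all, with 22.9% among genes at least 2-fold higher and 16.9% among those at least 2-fold lower. The shares within gene groups come from the choice of genes and motifs and say nothing about bre1Δ. All shares count letters on either strand and not bound sites.

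Stationary-phase genes had 21 of 25 lower and 3 higher (median -1.25). SNZ1, of vitamin B6 synthesis, was at 2994, 3013 and 2914 CPM in WT and 286, 281 and 294 CPM in bre1Δ (-3.37 ± 0.11), and SPG5, needed for survival in stationary phase, at 6967, 7142 and 7156 CPM in WT and 1227, 1345 and 1226 CPM in bre1Δ (-2.49 ± 0.06). GRE1, of desiccation, was lower (-2.94 ± 0.10), as were the wall protein gene SPI1 (-3.28 ± 0.09) and YGP1 (-2.32 ± 0.08). GIS1, for an activator of late stationary genes, was lower (-1.72 ± 0.04), and IGO1, which protects their mRNA, was lower (-1.41 ± 0.05). The spore wall gene SPS100 was at 3451, 3455 and 3347 CPM in WT and 187, 203 and 183 CPM in bre1Δ (-4.16 ± 0.14). For protein turnover, 30 of 42 proteasome genes were lower and 7 higher (median -0.43), with RPN8 at -1.87 ± 0.06, and 18 of 30 autophagy genes were lower and 10 higher (median -0.31, and -0.53 with the trend of gene length removed), with ATG8 at -1.76 ± 0.06 and the pexophagy receptor gene ATG36 at -2.47 ± 0.05.

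Phosphate starvation genes had 16 of 23 lower and 4 higher (median -0.73). PHO89 was at 4288, 4369 and 4368 CPM in WT and 429, 386 and 419.8 CPM in bre1Δ (-3.40 ± 0.14), and the high-affinity transporter gene PHO84 at 593, 571 and 549 CPM in WT and 73.4, 74.8 and 77.4 CPM in bre1Δ (-2.92 ± 0.08). Of 16 zinc genes 7 were higher and 9 lower, and ZRT1, the high-affinity zinc transporter, was at 569, 584 and 577 CPM in WT and 63.3, 59.4 and 64.5 CPM in bre1Δ (-3.21 ± 0.06). Among exporters, PDR12, which removes weak organic acids, was at 78.6, 78.9 and 75.8 CPM in WT and 1152, 946 and 1154 CPM in bre1Δ (3.80 ± 0.09), and PDR15 (-2.65 ± 0.06) and AQR1 (-3.43 ± 0.09) were lower. Ergosterol synthesis had 17 of 30 genes higher and 7 lower (median 0.24, and 0.14 with the trend of gene length removed), with ERG1 at 2.10 ± 0.10 and ERG11 at 1.86 ± 0.08. The nicotinic acid transporter gene TNA1 was at 114, 116 and 105 CPM in WT and 658, 676 and 663 CPM in bre1Δ (2.57 ± 0.05), and BNA4, of NAD synthesis, was higher (2.47 ± 0.09), while BNA2, of the first step (-1.85 ± 0.06), and the nicotinamidase gene PNC1 (-1.34 ± 0.06) were lower.

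Thiamine genes had 11 of 18 higher and 5 lower (median 0.64). THI4, of the thiazole, was at 1915, 1851 and 1784 CPM in WT and 3964, 3596 and 4075 CPM in bre1Δ (1.07 ± 0.13), and THI22 at 18.2, 22.2 and 19.2 CPM in WT and 143, 134 and 138 CPM in bre1Δ (2.80 ± 0.08). THI5 (3.57 ± 0.16) and THI12 (2.90 ± 0.14) share 85% and 70.6% of their windows with other loci, and so do FDH1 (3.60 ± 0.36, 84.2%) and FDH2 (3.23 ± 0.23, 84.3%), the formate dehydrogenase genes. How reads that fit several loci were assigned is not given in the sources used here, so the counts of these genes are uncertain. Of 38 genes of meiosis and sporulation 20 were higher and 8 lower (median 0.35, and 0.22 with the trend of gene length removed), against 44.8% and 41.6% of all genes tested. Their sum was lower, at 5023 to 5170 CPM in WT and 1023 to 1041 CPM in bre1Δ. Most of the WT sum came from SPS100, described above, which had the group's largest fall (-4.16). The sum thus mainly follows that gene. Among those higher was the regulator of meiosis IME1, at 22.9, 24.4 and 24.4 CPM in WT and 117, 118 and 113 CPM in bre1Δ (2.28 ± 0.10). GIP1, a phosphatase subunit of sporulation that is outside the group, was higher too (3.18 ± 0.05). PSA1, which makes GDP-mannose for wall proteins, was higher as well (3.16 ± 0.19).

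Histone genes were lower, with 1 exception, and other genes of chromatin went both ways. Of 11 histone genes 10 were lower and 1 higher, with a median of -1.21, and -0.88 with the trend of gene length removed. HTB1, for H2B, was at 1038, 1065 and 1086 CPM in WT and 359, 385 and 362 CPM in bre1Δ (-1.53 ± 0.06), and HTB2, its paralog, at 177, 190.3 and 178 CPM in WT and 77.6, 80.6 and 77.1 CPM in bre1Δ (-1.21 ± 0.05). HHF2, for H4 (-1.64 ± 0.06), and HTA2, for H2A (-1.47 ± 0.06), were lower, while HTA1 was the 1 gene higher (0.12 ± 0.05, adjusted p = 0.0366 in edgeR). The call of HTA1 was lost when any WT library or replicate 1 or 3 of bre1Δ was left out. Of the genes for H2B ubiquitination and the Paf1 complex, LGE1, the partner of Bre1, was at 926, 879 and 855 CPM in WT and 166, 147 and 174 CPM in bre1Δ (-2.45 ± 0.07), and RAD6 was at 161, 164 and 154 CPM in WT and 70.4, 74.5 and 77.9 CPM in bre1Δ (-1.10 ± 0.07). Within the Paf1 complex PAF1 (-0.78 ± 0.06) and LEO1 (-0.95 ± 0.07) were lower and CTR9 (1.51 ± 0.05) and CDC73 (0.69 ± 0.05) higher. The deubiquitinase gene UBP8 was higher (0.69 ± 0.08) and UBP10 was not called (0.04, adjusted p = 0.482 in edgeR).

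Of 10 genes for H3 methylation by the Set1 complex and Dot1, 7 were higher and 2 lower (median 0.43). SET1 was at 0.45 ± 0.06, DOT1 at 0.64 ± 0.07 and the demethylase gene JHD2 at 1.02 ± 0.09. SET2, the methyltransferase deleted in the other strain of the study, was at 26.1, 27.7 and 28.5 CPM in WT and 38.1, 45.3 and 42.6 CPM in bre1Δ (0.61 ± 0.09). EAF3, a shared subunit of the Rpd3S deacetylase and the NuA4 acetyltransferase, was at 946, 979.8 and 914 CPM in WT and 205, 233 and 200.5 CPM in bre1Δ (-2.15 ± 0.07). The nucleosome-binding gene NHP6B (-2.84 ± 0.08) and the chaperone gene ASF1 (-1.47 ± 0.08) were lower. Of 12 genes with internal cryptic promoters known from set2 mutants 6 were higher and 4 lower (median 0.41, and 0.06 with the trend of gene length removed), among them SYF1 (1.33 ± 0.06) and VPS72 (-1.07 ± 0.05). A count summed over a gene cannot tell a full-length transcript from one that begins inside it.

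Small nucleolar RNAs and several other structured RNAs, which normally carry no poly(A) tail, were lower in bre1Δ. Of 74 small nucleolar RNAs, which guide the modification of ribosomal RNA, 52 were lower and 6 higher (median -1.61). SNR189 was at 64.4, 63.6 and 57.4 CPM in WT and 0.626, 0.974 and 0.587 CPM in bre1Δ (-6.47 ± 0.28, adjusted p = 4.87e-15 in edgeR). SNR11 was at 225, 225 and 225 CPM in WT and 11.8, 10.5 and 11.3 CPM in bre1Δ (-4.32 ± 0.10), SNR8 was lower (-4.34 ± 0.30), and SNR128, the U14 RNA, was at 32.6, 18.3 and 13.2 CPM in WT and 1.39, 1.65 and 1.34 CPM in bre1Δ with wide spread in WT (-3.89 ± 0.51). Of 11 RNAs listed as other structured RNAs 9 were lower and 1 higher (median -3.10), with LSR1, the U2 spliceosomal RNA, at 676, 656 and 539.9 CPM in WT and 72.2, 76.8 and 70.0 CPM in bre1Δ (-3.10 ± 0.18), SNR6, the U6 RNA, at -6.48 ± 0.62, SCR1, of the signal recognition particle, at 679, 479 and 278 CPM in WT and 26.0, 23.8 and 28.1 CPM in bre1Δ (-4.19 ± 0.37), and RPR1, of RNase P, at -3.36 ± 0.16. The list also holds SRG1, the 1 higher (0.55 ± 0.12), and ICR1 (-1.86 ± 0.09). Both are long noncoding transcripts and not structured RNAs. Values for other untailed RNAs were mixed, and no result for them as a group is drawn. Of 264 transfer RNAs, a group added after their values were seen, 71 had enough reads to be tested. Of these 35 were higher and 15 lower (median 0.70, and 1.11 with the length trend of protein-coding genes removed). Their sum differed little, at 90 to 94 CPM in WT and 102 to 108 CPM in bre1Δ. Many were near the floor, such as tN(GUU)N2, at means of 0.045 CPM in WT and 1.91 CPM in bre1Δ. Such genes may have passed the read filter only through the groups where they were high, so no conclusion is drawn from these calls. The 5S ribosomal RNA gene RDN5-1 was at a mean of 17.8 CPM in WT and 136 CPM in bre1Δ (2.93 ± 0.18). The mitochondrial 21S ribosomal RNA was lower, at a mean of 170.2 CPM in WT and 23.1 CPM in bre1Δ (-2.90 ± 0.23).

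The 89 genes of structured RNA, transfer RNAs not among them, made up 0.333% to 0.413% of each WT library of day 4 and 0.0931% to 0.0968% in those of bre1Δ. At day 1 the shares were 0.0684% to 0.074% in WT and 0.103% to 0.116% in bre1Δ, and set2Δ had 0.189% to 0.357% at day 4. The libraries were made with a kit for messenger RNA, and the part of this share in the other differences was not tested. RRT15, an open reading frame at chromosome XII, 490406 to 490594, was lower, at 1569, 1129 and 1485 CPM in WT and 51.1, 37.3 and 46.5 CPM in bre1Δ (-4.95 ± 0.73). Ty retrotransposon genes had 35 of 44 lower and 2 higher (median -1.77), although 43 of them share most of their windows with other loci, and their share of counts was 0.168% to 0.176% in WT and 0.0535% to 0.054% in bre1Δ. Within 20 kb of a chromosome end, 90 of 213 genes were higher and 90 lower (median -0.05, and 0.01 with the trend of gene length removed).

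The same strains were compared at day 1. At day 1, 4524 of 6320 genes (71.6%) were called, but fewer by at least 2-fold, 366 higher (5.79%) and 287 lower (4.54%), and the median absolute log2 fold change was 0.40 against 0.76 at day 4. The 2 comparisons share no library. Of the 2832 genes higher at day 4, 1475 (52.1%) were higher and 587 (20.7%) lower at day 1, and of the 2629 lower genes 1415 (53.8%) were lower and 518 (19.7%) higher. Across genes, which are not independent replicates, Pearson's r between the log2 fold changes of the days was 0.297 and Spearman's rho 0.357. The difference between the days was itself called for 4857 genes (76.9%), 2528 more positive at day 4 (40.0%) and 2329 more negative (36.9%). By at least 2-fold these were 877 (13.9%) and 1021 (16.2%).

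**Figure D4:**
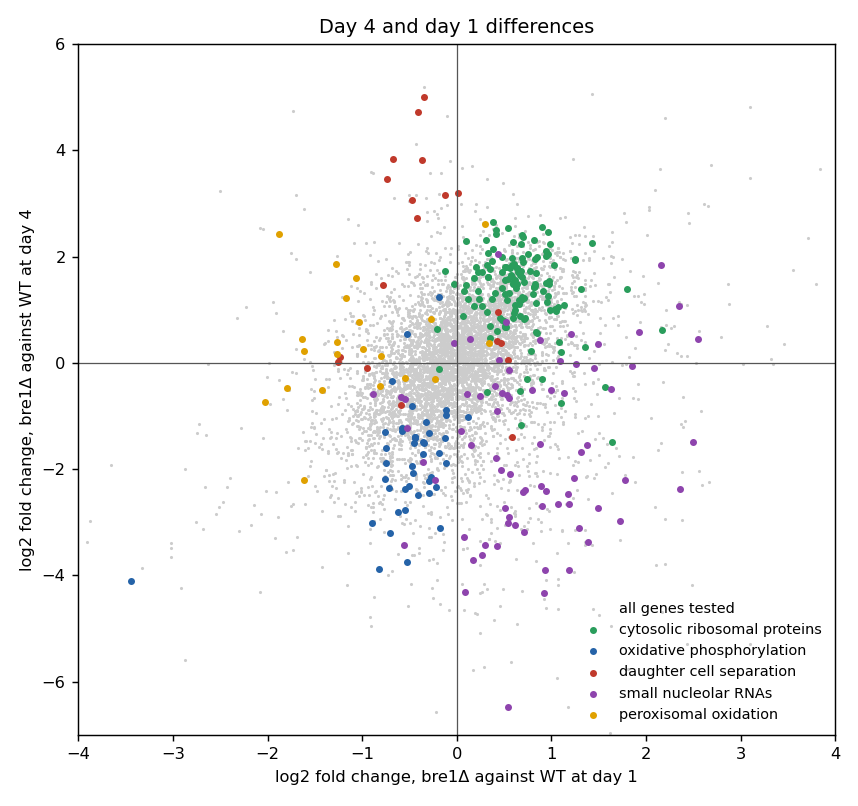
Log2 fold change of bre1Δ against WT at day 1 (x axis) and at day 4 (y axis) for all genes tested (grey) and 5 gene groups (colours). Ribosomal protein genes lie to the upper right and oxidative phosphorylation genes to the lower left, while daughter separation genes lie above 0 and small nucleolar RNAs below 0 at day 4 with the opposite sign at day 1 for many of them; 9 genes lie outside the axes.

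Groups differed in how the days compared. Ribosomal protein genes were higher at both days, with medians of 0.64 at day 1 and 1.46 at day 4, and ribosome biogenesis genes likewise (0.88 and 1.24). General stress genes were lower at both (-0.65 and -1.26), as were oxidative phosphorylation genes (-0.45 and -1.71). Daughter separation genes had a median of -0.41 at day 1, with 5 of 19 higher and 9 lower. SCW11 was at -0.35 ± 0.24 at day 1, and its difference between the days was 5.36 ± 0.36 (adjusted p = 2.5e-11 in edgeR). These genes varied between the WT libraries of day 1, where CTS1 was at 2206 ± 913 CPM (SD, n = 3).

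Fatty acid and acetate genes were placed differently on the 2 days. Peroxisomal fatty acid oxidation was lower at day 1 in 19 of 21 genes and higher in 2, with a median of -1.17 against 0.26 at day 4, and the difference between the days was called positive in 17 of them and negative in 1. POX1 went from -1.88 ± 0.10 to 2.42 ± 0.11. The glyoxylate and gluconeogenesis group was lower at day 1 in 20 of 23 genes and higher in 2 (median -0.85), and MDH2 went from -1.15 ± 0.08 to 2.7 ± 0.08. In WT, POX1 was at 1115 ± 144 CPM at day 1 and 71.2 ± 3.38 CPM at day 4, and in bre1Δ at 302 ± 59.3 and 380.1 ± 9.42 CPM (SD, n = 3). POX1 was thus far above bre1Δ in the WT libraries of day 1 and far below it in those of day 4, with similar means in bre1Δ on both days. SNZ1 and PHO84 went the other way, from 1.35 ± 0.10 and 0.77 ± 0.09 at day 1 to -3.37 ± 0.11 and -2.92 ± 0.08 at day 4. Small nucleolar RNAs had 41 of 74 higher and 3 lower at day 1 (median 0.71), the opposite of day 4.

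Values for set2Δ, the other deletion of the study, can be set beside those of bre1Δ, and because both were measured against the same WT libraries only the direct comparison of the deletions was tested. That comparison and the one with WT use the same 3 bre1Δ libraries, so their values are not independent. Between bre1Δ and set2Δ at day 4, 5315 of 6320 genes were called (84.1%), 2683 higher (42.5%) and 2632 lower (41.6%) in bre1Δ, of which 1155 (18.3%) and 962 (15.2%) by at least 2-fold. URA1 was 4.94 ± 0.07 against set2Δ, where set2Δ itself was at 0.12 ± 0.07 against WT. DSE2 was 4.93 ± 0.27 against set2Δ, which was at -0.21 ± 0.23 against WT, and CTS1 4.22 ± 0.23, with set2Δ at -0.76 ± 0.20. ALD3 and CTT1 were lower than in set2Δ (-4.26 ± 0.09 and -4.42 ± 0.09), where they were at 0.03 ± 0.08 and 1.25 ± 0.08 against WT.

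The groups can be set side by side in the same way. Ribosome biogenesis genes had a median of 1.24 in bre1Δ and 0.01 in set2Δ against WT, and 75 of 85 were higher and 9 lower in bre1Δ than in set2Δ. General stress genes had medians of -1.26 and 0.03, with 37 of 45 lower and 4 higher in bre1Δ than in set2Δ. Daughter separation genes had medians of 1.47 and -0.39 (13 of 19 higher, 5 lower). Oxidative phosphorylation genes were lower than WT in both deletions (-1.71 and -0.94), and 36 of 43 were lower and 4 higher in bre1Δ than in set2Δ. In heat shock genes the medians were -0.89 and -1.0, and 17 of 34 were higher and 12 lower in bre1Δ than in set2Δ. The genes lowest against set2Δ included PGA2 (-4.54 ± 0.21) and SNR128 (-4.16 ± 0.52) beside BRE1.

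**Figure D5:**
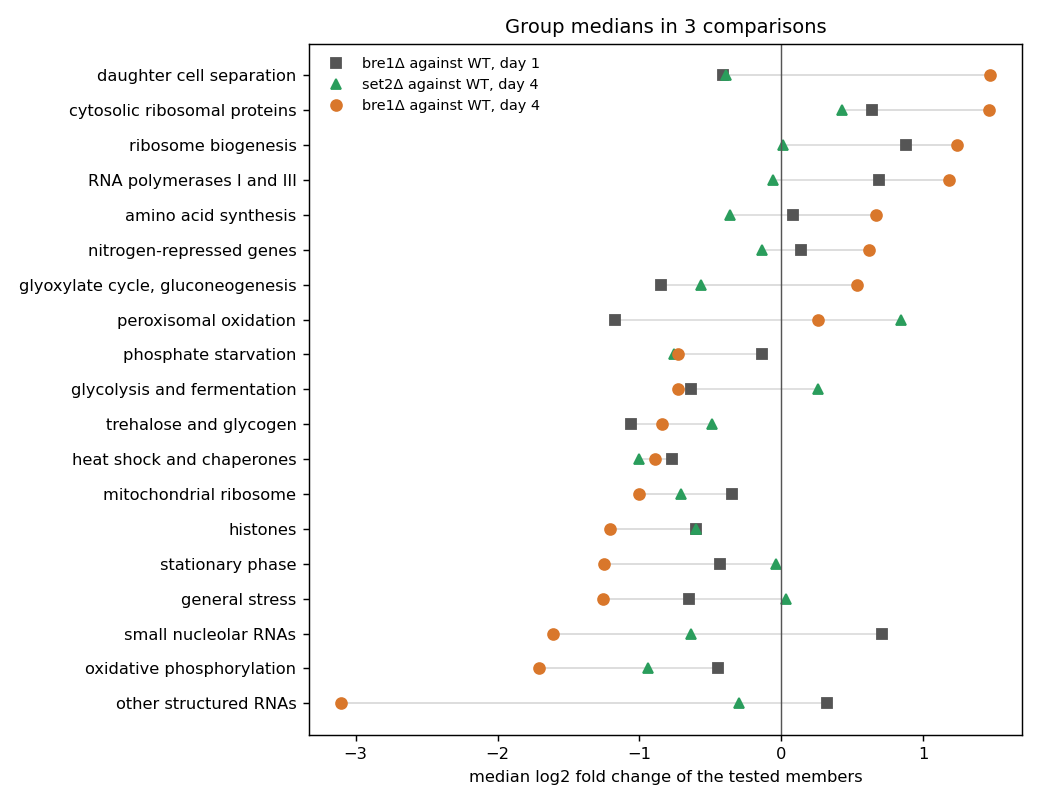
Median log2 fold change (x axis) of the tested members of 19 gene groups (y axis) for bre1Δ against WT at day 4 (orange circles) and day 1 (grey squares) and for set2Δ against WT at day 4 (green triangles). The circles and triangles share the WT libraries of day 4, and general stress genes, for example, lie at -1.26, -0.65 and 0.03.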

How the data were processed

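Messenger RNA of yeast cultures was sequenced, and 18 libraries in 6 groups of 3 were given, grouped by the labels' strain and day. The authors trimmed, aligned and counted reads with cutadapt 2.6, STAR 2.7.0b and HTSeq 2.0.2, per the submitters' processing notes, which also name FastQC 0.11.8, R 4.2.0 and DESeq2 1.36.0. The deposited counts are raw read counts per gene and were used as deposited. The deposited FPKM values, made by the authors from these reads, served only as an alternative. The strand setting and the annotation are not given in the sources used here.

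Counts were tested with edgeR 4.0.16 in R 4.3.3 (TMM, filterByExpr, quasi-likelihood fit of 18 libraries with 6 group means), with Benjamini-Hochberg adjustment over 6320 genes at a threshold of 0.05. The script was checked on simulated counts. DESeq2 1.42.0 and limma 3.58.1 on log2(FPKM + 1) or log2(FPKM + 0.1) were alternatives, beside other scalings, no filter, a replicate block, the 6 libraries alone and each library left out. CPM are TMM-scaled. Depth was 12500920 to 29514490 counts at day 4 in the groups compared, and the biological coefficient of variation was 6.22%.

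Of 6837 identifiers 806 were not matched to a RefSeq gene of R64, the source of symbols, positions and promoter windows; 4 empty lines of the tables were not analysed here. Sequence shared between loci was measured as the percentage of a gene's 50-base windows found elsewhere. Members, gene lists and tests were chosen with earlier results of these data known. To 47 gene lists 5 were added later. These are pyrimidine synthesis, small nucleolar RNAs, Ty genes, genes near chromosome ends and transfer RNAs. Named genes are BRE1 and its neighbours, the 15 largest rises and falls with at least 20 CPM and groups that do not overlap, the 6 best-supported genes by p value of every group, all genes of groups no larger than 25, and the 6 at each end of the comparisons with day 1 and with set2Δ. Small exceptions to a list's direction were named after their values were seen. The results for 1 gene are not reported here.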

Additional observations from a re-analysis of the deposited data

Results flagged for a closer look

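The difference between bre1Δ and WT was not the same on both days for 4857 genes by the test of the day difference itself (edgeR, adjusted p at most 0.05, 76.9% of those tested). Given here are genes called in opposite directions on the 2 days, with a symbol and at least 20 CPM in 1 of the 4 groups. They are the 6 with the largest positive and the 6 with the largest negative difference (day 4 minus day 1, log2) under those limits. Larger differences without opposite calls include SCW11 at 5.36 and SNR189 at -7.01. FDH2 stood at 5.74, with -2.50 ± 0.18 on day 1 and 3.23 ± 0.23 on day 4, and FDH1 at 4.51, both formate dehydrogenase genes that share most of their sequence. THI12 stood at 4.51 and THI5 at 4.45, which make a thiamine precursor and also share most of their sequence with other loci. ATO3, an ammonium exporter gene, stood at 4.62, with -2.08 ± 0.11 on day 1 and 104, 96.9 and 99.4 CPM in WT and 532, 646 and 563 CPM in bre1Δ on day 4. DSE1, of daughter separation, stood at 4.50, with -0.67 ± 0.20 on day 1.

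RRT15 stood at -6.58, and its 3 WT libraries of day 4 ran from 1129 to 1569 CPM against 47.7 ± 14.9 CPM in WT on day 1 (SD, n = 3). The small nucleolar RNA genes SNR8, SNR35 and SNR37 stood at -5.26, -5.09 and -4.77. PGA2, of protein trafficking, stood at -5.03, at 17.8, 21.6 and 21.3 CPM in WT and 1.25, 0.749 and 1.37 CPM in bre1Δ on day 4. AQR1, an exporter of short-chain acids and amino acids, stood at -4.86, with 1.43 ± 0.13 on day 1 and -3.43 ± 0.09 on day 4.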

How the results depend on the processing

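Counts of called genes in all 3 comparisons, and the counts for the 19 gene groups in the main direction, stayed within 1.5 times of the reported values under every alternative run. Between bre1Δ and WT at day 4 the number called was 5290 to 5427 with 1 library left out, 5430 with DESeq2, 5549 with no filter on low counts, and 5357 with replicates 1 and 3 of bre1Δ summed, an alternative chosen after seeing the data. The day difference was called for 4697 to 4839 genes and the difference from set2Δ for 5165 to 5287 with 1 library left out. Same-numbered libraries had residual correlations of 0.027, 0.003 and -0.105. These show no strong shared effect but cannot tell whether such libraries were prepared together. The replicate block gave 5457 calls (5470 on the 6 libraries alone). Scaling by library size raised the median of all genes from 0.04 to 0.31 and reversed RPO31 to 0.06 and RPC82 to 0.07, as did limma on FPKM (0.06 and 0.07 with either pseudocount), both values below the shifted median of all genes. UBP10 became called at 0.30 under library size. Removing the trend of gene length, also chosen after seeing the data, turned the median of genes near chromosome ends from -0.05 to 0.01 and moved the other medians printed with it, without a change of sign. Depth limits the rarest RNAs, such as SNR189 in bre1Δ.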
